A study of Mus musculus with 16 samples.

Results

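MHC class I antigen presentation was followed in RAW264.7 cells through 10 genes out of the 21965 genes of the expression table. The genes were named for their place in the pathway: B2m, H2-K1, H2-D1, Tap1, Tap2, Tapbp, Psmb8, Psmb9, Psmb10 and Nlrc5. They were chosen with earlier results of these data known, so counts among them are not independent of the data. RAW264.7 is a mouse macrophage line derived from a leukaemia virus-induced tumour of the BALB/c strain, and its messenger RNA was sequenced in 16 libraries. The question of the series is how tirzepatide, a peptide drug that activates the GIP and GLP-1 receptors, affects these macrophages in the presence of oxidised low-density lipoprotein (oxLDL), a lipid particle that macrophages take up in atherosclerotic plaques. The groups, with 4 libraries each, were oxLDL together with tirzepatide, oxLDL alone (50 µg/ml), tirzepatide alone (100 nmol/ml as the labels state it), and control cells that received culture medium as vehicle. All groups shared 1 cell line, growth medium and serum. The labels give no duration of treatment. Nor do they state that libraries of 1 group were grown as separate cultures. The p-values therefore describe the spread among these libraries, which may be technical.

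Depth was 15877278 to 17336019 counts per library. All 8 macrophage markers examined, among them Csf1r, Cd68 and Lyz2, had reads in each group, though Mertk reached at most 0.611 TPM (transcripts scaled for length and depth). Their summed levels were 21074 to 23232 TPM with both treatments, 21429 to 22741 TPM with oxLDL, 19937 to 20886 TPM with tirzepatide and 16772 to 18033 TPM in controls. Lyz2 alone, at 15150 to 21333 TPM over all libraries, made up most of these sums. Of 5 T cell markers, Cd3e was at 0 in every library, Cd3d, Cd4 and Cd8a reached at most 0.297 TPM, and Lck stood at 9.80 to 12.2 TPM in every group. Of the B cell markers, Ms4a1 was at 0 in every library and Cd79a reached at most 0.35 TPM. Transcripts of 13 pancreatic acinar genes summed to 244 and 128 TPM in controls 1 and 2, against 35.6 and 19.98 TPM in controls 3 and 4, and to 6.40 to 50.4 TPM in the treated libraries. The part of either marker list in the comparisons with control was not tested. Counts of called genes, among the 10 and over all genes, are given below also without controls 1 and 2. Calls of single genes outside the 10 were not checked with libraries left out. In bulk RNA, fewer cells of a type and less RNA per cell cannot be told apart.

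MHC class I molecules carry peptides from the proteins a cell makes to its surface, where cytotoxic T cells inspect them. Proteasomes cut the proteins, the TAP transporter pumps the peptides into the endoplasmic reticulum, and tapasin helps to load them onto a heavy chain paired with beta-2 microglobulin. The heavy chain and B2m genes share a promoter module of SXY elements through which Nlrc5 acts, next to sites for NF-kappa B and interferon regulatory factors, and interferon gamma is the classical inducer of the whole set. Macrophages carry class I at their surface and can also display peptides from material they have engulfed.

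Promoter windows of the reference genome show what the heavy chain and B2m genes share apart from their expression. RefSeq windows of 300 bases (250 before to 50 after the start site, build GRCm38.p6) were at hand for 8 of the 10 genes. The expression table is on a later build, GRCm39, and carries no coordinates here, so positions belong to GRCm38.p6 alone. Windows were searched on both strands for the interferon regulatory factor core AANNGAAA (present in 23.9% of 32851 mouse windows), the kappa B motif of 10 letters (4.16%), TGACG as the core of the X2 element (20.8%) and ATTGG as the core of the Y element (37.4%). The windows of B2m, H2-K1 and H2-D1, the 3 genes on which the results below mostly turn, and that of the transporter gene Tap1 for contrast read as follows, 5′ to 3′ on the strand of the gene, with matches on either strand in capitals.
B2m, chr2:122147437-122147736, plus strand: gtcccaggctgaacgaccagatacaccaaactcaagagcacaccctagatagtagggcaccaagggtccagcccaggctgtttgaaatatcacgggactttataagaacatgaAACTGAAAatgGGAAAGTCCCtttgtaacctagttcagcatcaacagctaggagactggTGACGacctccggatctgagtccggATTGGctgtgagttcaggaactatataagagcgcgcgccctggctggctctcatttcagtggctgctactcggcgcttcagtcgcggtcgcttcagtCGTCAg
H2-K1, chr17:34000298-34000597, minus strand: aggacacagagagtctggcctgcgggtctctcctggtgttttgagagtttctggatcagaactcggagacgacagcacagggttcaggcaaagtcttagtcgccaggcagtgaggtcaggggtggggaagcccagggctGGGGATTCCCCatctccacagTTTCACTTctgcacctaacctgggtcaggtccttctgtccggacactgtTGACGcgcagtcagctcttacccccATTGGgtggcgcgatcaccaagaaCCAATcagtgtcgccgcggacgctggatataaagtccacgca
H2-D1, chr17:35262844-35263143, plus strand: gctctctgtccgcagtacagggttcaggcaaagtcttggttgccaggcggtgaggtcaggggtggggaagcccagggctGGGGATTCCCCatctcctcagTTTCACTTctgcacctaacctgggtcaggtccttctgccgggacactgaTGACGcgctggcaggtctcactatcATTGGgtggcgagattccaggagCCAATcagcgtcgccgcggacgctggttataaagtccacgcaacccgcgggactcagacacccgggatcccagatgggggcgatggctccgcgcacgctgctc
Tap1, chr17:34187306-34187605, plus strand: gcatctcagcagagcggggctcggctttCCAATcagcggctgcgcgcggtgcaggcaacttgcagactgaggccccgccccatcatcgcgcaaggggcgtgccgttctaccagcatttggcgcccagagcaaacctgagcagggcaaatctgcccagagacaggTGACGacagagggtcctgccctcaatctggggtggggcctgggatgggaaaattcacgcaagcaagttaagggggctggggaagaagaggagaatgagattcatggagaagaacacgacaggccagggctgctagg
B2m, H2-K1 and H2-D1 each held all 4 motifs, as did 23 windows in all (0.07%). In each of them an X2 core was followed by a Y core with starts 25 bases apart, which held for 19 windows (0.0578%), that of H2-M3 among them. The spacing was looked for after the matches had been seen. In H2-K1 and H2-D1 the kappa B match overlaps a second one on the other strand. The Tap1 window held X2 and Y cores in another arrangement and neither of the other motifs, and it shares 275 bases with the window of Psmb9, which is transcribed the opposite way from the same stretch. Tapbp held only Y cores, and Psmb8 and Psmb10 held none of the 4 motifs in these windows. Tap2 and Nlrc5 are named only. A match is a description of letters and not evidence of binding.

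The classical heavy chains H2-K1 and H2-D1 were lower in each treated group than in control, and B2m was lower in both groups given oxLDL. With oxLDL, B2m, H2-K1 and H2-D1 fell, 3 of the 10 genes, where 2.05% of the 11319 genes tested fell. With tirzepatide, H2-K1 and H2-D1 fell, 2 of the 10, where 1.74% of tested genes fell. With both treatments, 6 of the 10 fell (B2m, H2-K1, H2-D1, Psmb8, Tap1 and Nlrc5), where 4.25% of tested genes fell. None of the 10 rose in any comparison, where 4.69%, 2.49% and 2.34% of tested genes rose against control with both treatments, with oxLDL and with tirzepatide. A gene counts as fallen or risen where its Benjamini-Hochberg adjusted p from edgeR's quasi-likelihood test, over all tested genes, was under 0.05.

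All 10 genes passed the filter on low counts. Their median log2 change against control was -0.29 with both treatments, -0.18 with oxLDL and -0.18 with tirzepatide, where the medians over all tested genes lay within 0.01 of 0. The log2 change was below 0 for 10 of 10 genes with both treatments, for 10 of 10 with oxLDL and for 7 of 10 with tirzepatide. These comparisons share the same 4 controls, so their likeness is not independent. Without controls 1 and 2, the number that fell was 3 with both treatments (B2m, H2-K1 and H2-D1), 1 with oxLDL (B2m) and 0 with tirzepatide. Of all 11486 genes tested in that setting, 486, 159 and 95 fell in that order. With both treatments the number among the 10 was also 3 in a fit of the combined and control libraries alone (the same genes), and without control 2, control 3 or combined library 1. Over all tested genes 219, 240, 253 and 261 fell in those settings, where 481 fell in the fit of all 16 libraries.

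**Figure D1:**
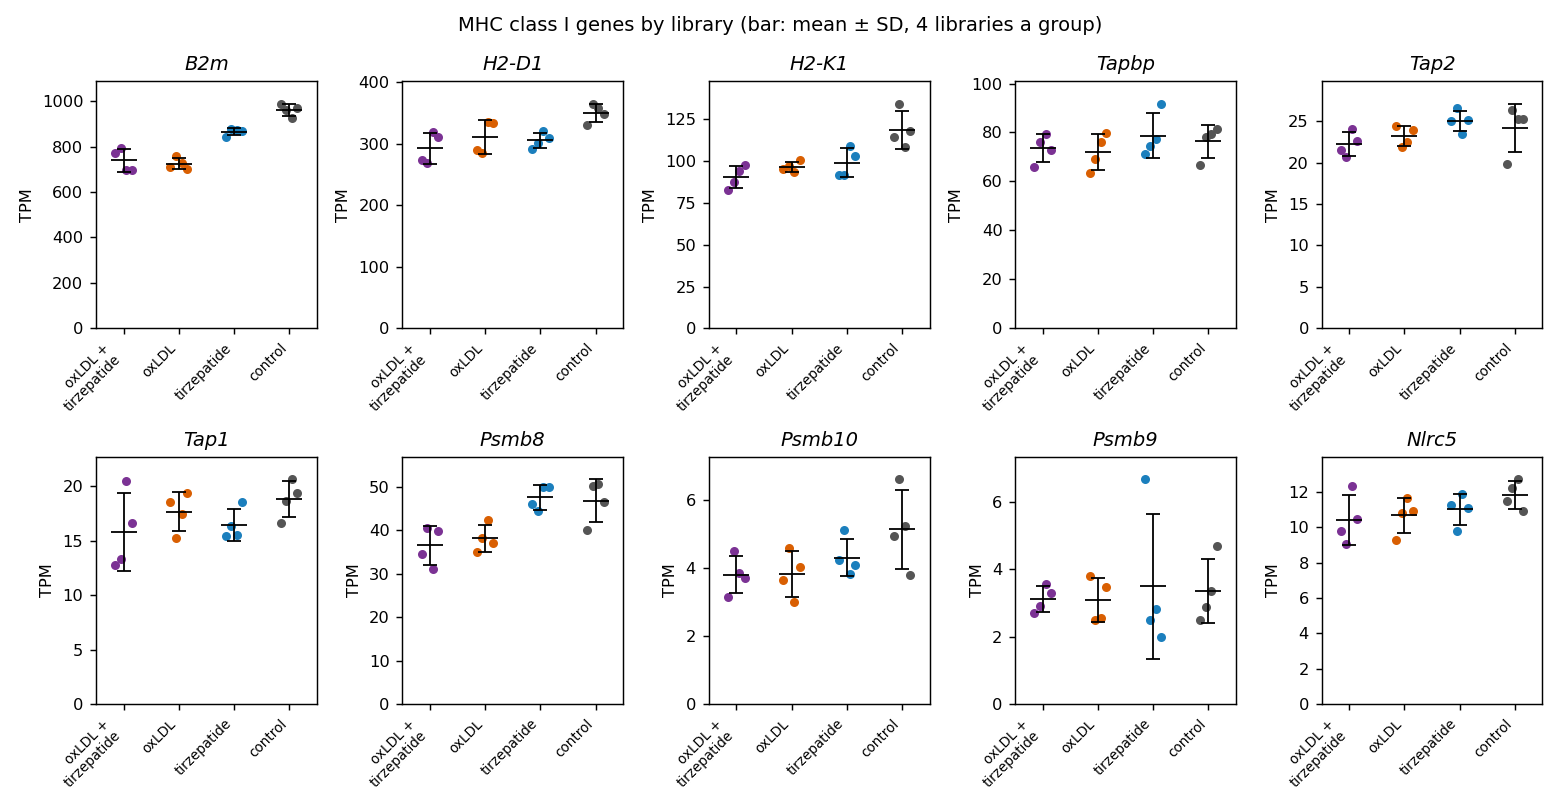
Transcript level in TPM (vertical axis, from 0) of the 10 class I presentation genes in each of 16 libraries, with the group along the horizontal axis; points are libraries and bars are the mean ± SD of 4. B2m in all treated libraries lies at or below 878 TPM, under the lowest control at 925 TPM, while Tap2, Tapbp and Psmb9 overlap between all groups.

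B2m encodes beta-2 microglobulin, the light chain that every class I heavy chain needs to fold and reach the surface. It was the most abundant of the 10 transcripts, at a mean of 823 TPM over all libraries. B2m stood at 769.9, 794, 695 and 697 TPM with both treatments, at 712, 757, 728 and 703 TPM with oxLDL, at 844, 878, 872 and 869 TPM with tirzepatide, and at 989.8, 960.1, 925 and 968 TPM in controls. Every treated library was below every control, and every library with oxLDL, alone or with tirzepatide, was below every library with tirzepatide alone. Of all tested genes, 3.27% lay wholly below control in this way with both treatments, 3.44% with oxLDL and 2.68% with tirzepatide.

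B2m fell with both treatments by 0.39 on the log2 scale (SE 0.05, adjusted p = 4.84e-05 by edgeR). With oxLDL alone B2m fell by 0.41 (SE 0.05, adjusted p = 2.05e-05 by edgeR), or by 24.9%. With tirzepatide alone its log2 change was -0.18 (SE 0.05, 95% interval -0.29 to -0.07), and the adjusted p of 0.0502 by edgeR lay just above the threshold. Over 8 other settings its adjusted p by edgeR or DESeq2 ran from 0.00978 to 0.311 and was under the threshold in 6. Without controls 1 and 2 the log2 changes of B2m were -0.33 with both treatments, -0.36 with oxLDL and -0.13 with tirzepatide, with adjusted p = 0.00138, 0.000908 and 0.311 by edgeR in that order.

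H2-D1 encodes a classical heavy chain, which holds the peptide in its groove. Its level was 273.8, 269, 318 and 310.3 TPM with both treatments, 290.4, 285, 335 and 333 TPM with oxLDL, 291, 301, 321 and 309 TPM with tirzepatide, and 331, 365, 358 and 349 TPM in controls. All libraries with both treatments or with tirzepatide alone were below all controls, whereas 2 oxLDL libraries reached the range of the controls. Libraries 1 and 2 were below libraries 3 and 4 in each treated group but not in controls, and the reason was not tested. H2-D1 fell by 0.27 on the log2 scale with both treatments (SE 0.05, adjusted p = 0.00123 by edgeR), by 0.19 with oxLDL (SE 0.05, adjusted p = 0.0302 by edgeR) and by 0.23 with tirzepatide (SE 0.05, adjusted p = 0.0102 by edgeR). The oxLDL call was lost without control 2, control 3, oxLDL 1 or oxLDL 2 (adjusted p = 0.126, 0.0621, 0.117 and 0.131 by edgeR), and the tirzepatide call without control 2, where edgeR gave an adjusted p of 0.0552. Without controls 1 and 2 the adjusted p was 0.0111 with both treatments, 0.167 with oxLDL and 0.0712 with tirzepatide by edgeR.

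H2-K1 encodes the other classical heavy chain among the 10 genes and has the same role. Its level was 82.7, 87.7, 94.3 and 97.8 TPM with both treatments, 95.2, 97.0, 93.4 and 100.6 TPM with oxLDL, 91.9, 91.6, 109 and 103 TPM with tirzepatide, and 114, 134.5, 108 and 118 TPM in controls. The libraries with both treatments and those with oxLDL all lay below the controls, and tirzepatide 3 reached the lowest control. H2-K1 fell by 0.39 on the log2 scale with both treatments (SE 0.06, adjusted p = 0.000434 by edgeR), by 0.31 with oxLDL (SE 0.06, adjusted p = 0.0044 by edgeR) and by 0.29 with tirzepatide (SE 0.06, adjusted p = 0.0122 by edgeR). The tirzepatide call was lost without control 2, tirzepatide 1 or tirzepatide 2 (adjusted p = 0.0736, 0.0557 and 0.0501 by edgeR). Without controls 1 and 2 the adjusted p was 0.00723 with both treatments, 0.0744 with oxLDL and 0.125 with tirzepatide by edgeR.

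The heavy chain values carry an uncertainty that B2m does not. Class I heavy chain genes are closely related paralogs. The authors' estimated counts were not whole numbers in 16 of 16 libraries for H2-D1 and in 15 for H2-K1, against 0 for B2m. Such counts show reads split between genes. They also occurred in 6 libraries for Tap1, in 6 for Psmb9 and in 4 for Tapbp. BALB/c cells carry the H-2d haplotype, whereas the reference mouse genome is of strain C57BL/6J with H-2b, so these alleles were measured against another haplotype's sequence. The ratio of B2m TPM to the summed TPM of H2-K1 and H2-D1 ran from 1.69 to 2.23 with both treatments, from 1.62 to 1.98 with oxLDL, from 2.03 to 2.23 with tirzepatide and from 1.92 to 2.23 in controls, and the ranges overlapped control in each group. In each treated group this ratio was higher in libraries 1 and 2 than in libraries 3 and 4, which controls did not show.

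**Figure D2:**
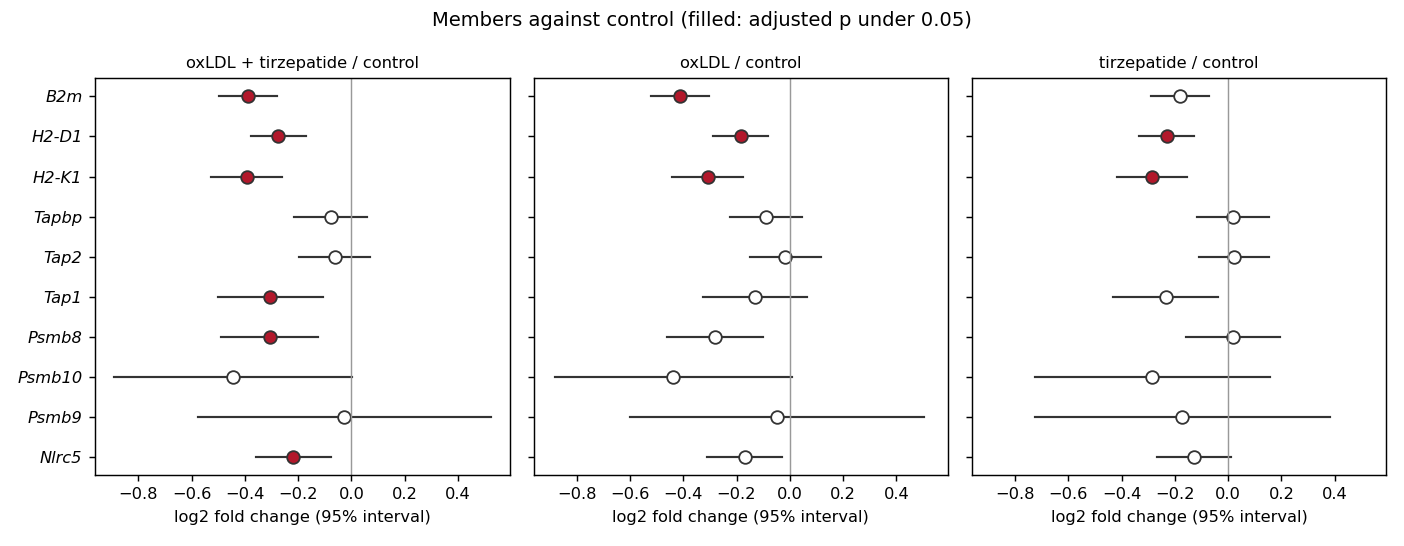
Log2 fold change against control (horizontal axis) of the 10 genes with both treatments, with oxLDL and with tirzepatide, from edgeR's fit of all libraries; lines are 95% intervals and filled points have an adjusted p under 0.05. B2m, H2-D1 and H2-K1 are filled at -0.39, -0.27 and -0.39 with both treatments, and the widest intervals belong to Psmb9 and Psmb10.

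Of the genes that bring peptides to the heavy chain, Tap1 was the one that fell, and it did so with both treatments. Tap1 and Tap2 encode the partner chains of the TAP peptide transporter. Tap1 was at 12.7, 13.3, 20.5 and 16.6 TPM with both treatments, at 18.6, 15.2, 17.5 and 19.3 TPM with oxLDL, at 15.4, 16.3, 15.5 and 18.6 TPM with tirzepatide, and at 16.6, 18.7, 20.6 and 19.4 TPM in controls. The combined group spread widely, with 3 libraries below all controls, combined library 4 only just (16.617 against 16.632 TPM), and 1 near the highest control. Tap1 fell with both treatments by 0.31 on the log2 scale (SE 0.10, adjusted p = 0.0457 by edgeR). Its changes of -0.13 with oxLDL and -0.24 with tirzepatide did not pass (adjusted p = 0.513 and 0.168 by edgeR). The Tap1 call was lost without any 1 of 11 libraries, with adjusted p of up to 0.167 by edgeR, and without controls 1 and 2, where edgeR gave 0.0515.

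Tap2, the partner of Tap1, was at 21.5, 20.7, 23.997 and 22.6 TPM with both treatments, at 24.4, 21.9, 22.5 and 23.98 TPM with oxLDL, at 24.975, 26.5, 23.5 and 25.1 TPM with tirzepatide, and at 19.8, 26.4, 25.3 and 25.2 TPM in controls. The groups overlapped throughout, and control 1 was the lowest of all 16 libraries. Its log2 changes were -0.06 with both treatments (95% interval -0.20 to 0.07), -0.02 with oxLDL (-0.15 to 0.12) and 0.02 with tirzepatide (-0.11 to 0.15).

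Tapbp encodes tapasin, which holds the empty heavy chain at the transporter while peptides are exchanged. Its level was 65.99, 76.1, 79.5 and 72.9 TPM with both treatments, 63.4, 69.1, 76.0 and 79.7 TPM with oxLDL, 71.4, 74.4, 77.3 and 91.8 TPM with tirzepatide, and 66.7, 78.0, 79.5 and 81.5 TPM in controls. Every treated group overlapped the controls. The log2 changes were -0.08 with both treatments (95% interval -0.21 to 0.06), -0.09 with oxLDL (-0.23 to 0.05) and 0.02 with tirzepatide (-0.12 to 0.15), and none passed the test.

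The immunoproteasome subunits, which replace constitutive catalytic subunits of the proteasome under interferon, differed in abundance, and Psmb8 was the one that fell. Psmb8, which encodes the subunit LMP7, was the most abundant of these subunits. It was at 34.7, 40.7, 31.1 and 39.97 TPM with both treatments, at 35.0, 38.2, 42.3 and 37.2 TPM with oxLDL, at 46.0, 44.5, 50.0 and 50.0 TPM with tirzepatide, and at 40.1, 50.3, 50.7 and 46.5 TPM in controls. The libraries with oxLDL, alone or combined, were all below the tirzepatide libraries, while control 1 lay within the range of the oxLDL groups.

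Psmb8 fell with both treatments by 0.31 on the log2 scale (SE 0.09, adjusted p = 0.0294 by edgeR). With oxLDL its log2 change of -0.28 (SE 0.09, 95% interval -0.46 to -0.10) did not pass at an adjusted p of 0.0658 by edgeR, and with tirzepatide it was 0.02 (95% interval -0.16 to 0.19, adjusted p = 0.942 by edgeR). The call with both treatments was lost without control 2, control 3, or combined libraries 1 or 3 (adjusted p = 0.0981, 0.0997, 0.0559 and 0.0984 by edgeR).

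Psmb10, which encodes the subunit MECL-1, was low, at 3.16, 4.50, 3.86 and 3.69 TPM with both treatments, 3.64, 4.59, 3.00 and 4.02 TPM with oxLDL, 4.22, 5.10, 3.81 and 4.08 TPM with tirzepatide, and 4.92, 6.60, 5.22 and 3.78 TPM in controls. These levels rest on 33 to 73 counts per library. Control 4 lay among the treated libraries, and none of its log2 changes passed: -0.44 with both treatments, -0.44 with oxLDL and -0.28 with tirzepatide, with SEs of 0.22, 0.22 and 0.21 and adjusted p of 0.217, 0.29 and 0.512 by edgeR.

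Psmb9, which encodes LMP2, was lower still, on 21 to 51 counts per library. It stood at 2.69, 2.90, 3.57 and 3.30 TPM with both treatments, at 3.80, 2.49, 2.55 and 3.46 TPM with oxLDL, at 6.67, 2.48, 2.83 and 1.98 TPM with tirzepatide, and at 2.49, 2.89, 3.35 and 4.68 TPM in controls. Tirzepatide 1 was the highest of the 16 in TPM, with 46 counts, whereas control 4 had 51 counts at 4.68 TPM, so the length used to scale the gene differed between libraries. With 95% intervals of -0.58 to 0.52, -0.60 to 0.50 and -0.73 to 0.38 on the log2 scale for both treatments, oxLDL and tirzepatide, changes of the size seen in B2m would not have been detectable at this depth.

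Each inducible subunit was set over the constitutive subunit whose place it takes. Psmb8 over Psmb5 was 22.6%, 22.9%, 15.7% and 18.9% of TPM with both treatments, 20.1%, 19.4%, 22.4% and 19.9% with oxLDL, 27.2%, 23.3%, 26.0% and 27.7% with tirzepatide, and 24.1%, 25.9%, 25.7% and 28.0% in controls. All libraries that received oxLDL lay below all that did not. The difference in mean log2 ratio was -0.39 with both treatments against control, -0.34 with oxLDL against control and -0.39 with both treatments against tirzepatide, each with p = 0.0286 in a two-sided exact permutation test. That is the smallest p that 4 against 4 libraries allow. After Benjamini-Hochberg adjustment over 15 comparisons it became 0.143 for each exact test, so none passed. With that smallest p, none could have passed unless most of the 15 comparisons had reached it. The adjusted tests therefore cannot decide whether the ratio of Psmb8 to Psmb5 differed. The ratios Psmb9 over Psmb6 and Psmb10 over Psmb7 overlapped between all groups compared, with adjusted p of 0.571 or above in the same exact tests. Psmb5, Psmb6 and Psmb7 themselves passed the test in none of the comparisons, 0 of 3 by edgeR, with 0 of 3 at an unadjusted p under 0.05 in each.

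**Figure D3:**
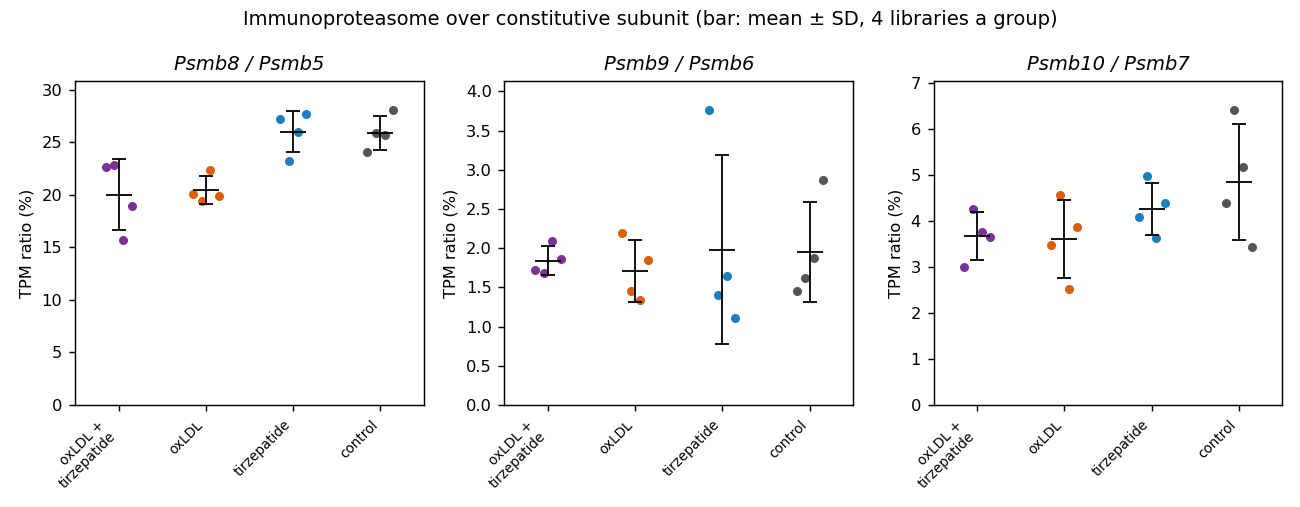
TPM of each immunoproteasome subunit as a percentage of the TPM of its constitutive counterpart (vertical axis, from 0) in each library by group; bars are the mean ± SD of 4 libraries. Psmb8 over Psmb5 lies at 15.7% to 22.9% in the 8 libraries with oxLDL and at 23.3% to 28.0% in the 8 without, and the other ratios overlap between groups.

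Nlrc5 encodes the transactivator that is recruited to class I promoters. It was at 9.80, 9.07, 12.3 and 10.5 TPM with both treatments, at 9.25, 10.8, 11.7 and 10.9 TPM with oxLDL, at 11.3, 9.80, 11.9 and 11.1 TPM with tirzepatide, and at 11.5, 12.2, 12.7 and 10.9 TPM in controls. Each treated group overlapped the controls. Nlrc5 fell with both treatments by 0.22 on the log2 scale (SE 0.07, adjusted p = 0.0442 by edgeR), and its changes of -0.17 with oxLDL and -0.13 with tirzepatide did not pass (adjusted p = 0.168 and 0.308 by edgeR). The call was lost without controls 1 and 2 (adjusted p = 0.109 by edgeR) and without any 1 of 10 libraries, with adjusted p of up to 0.154 by edgeR.

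In order of mean level the 10 genes ran B2m, H2-D1, H2-K1, Tapbp, Psmb8, Tap2, Tap1, Nlrc5, Psmb10 and Psmb9, at 823, 315, 101, 75.2, 42.3, 23.6, 17.2, 10.98, 4.26 and 3.26 TPM over the 16 libraries. B2m exceeded 99.2% of the genes that had reads. Each gene was above the next in all 16 libraries, except Psmb10, which was above Psmb9 in 13 of 16. The difference between Psmb10 and Psmb9 was not tested.

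Adding tirzepatide to oxLDL moved none of the 10 genes past the threshold. By edgeR, 0 of 10 passed and 0 of 10 had an unadjusted p under 0.05, and DESeq2 also called 0 of them, while 0.0353% of all tested genes passed by edgeR and 10.1% had an unadjusted p under 0.05. The log2 change of B2m was 0.03 (95% interval -0.08 to 0.13), that of H2-K1 was -0.08 (-0.22 to 0.05), that of H2-D1 was -0.09 (-0.19 to 0.01), that of Psmb8 was -0.02 (-0.21 to 0.16) and that of Tap1 was -0.18 (-0.37 to 0.02). The lower bounds for B2m, H2-K1 and H2-D1 leave room for a further fall of at most 0.22 on this scale, and the missed threshold does not show that the groups were equal. All 10 genes overlapped between the groups, whereas 1.67% of tested genes lay wholly below oxLDL and 3.08% wholly above.

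Adding oxLDL to tirzepatide lowered B2m. B2m fell by 0.21 on the log2 scale against tirzepatide alone (SE 0.05, adjusted p = 0.0435 by edgeR), 1 of the 10 genes, where 0.777% of tested genes fell. B2m and Psmb8 lay wholly below the tirzepatide libraries, as 4.4% of tested genes did. The change of Psmb8 was the larger, at -0.32 (SE 0.09, 95% interval -0.51 to -0.14), with an adjusted p of 0.0602 by edgeR. The changes of H2-K1 (-0.11) and H2-D1 (-0.04) did not pass (adjusted p = 0.473 and 0.739 by edgeR). The B2m call was lost without any 1 of 10 libraries, with adjusted p up to 0.171 by edgeR, and in a fit of these groups alone (0.0722). Over 8 other settings the adjusted p of Psmb8 by edgeR or DESeq2 ran from 0.0287 to 0.118.

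**Figure D4:**
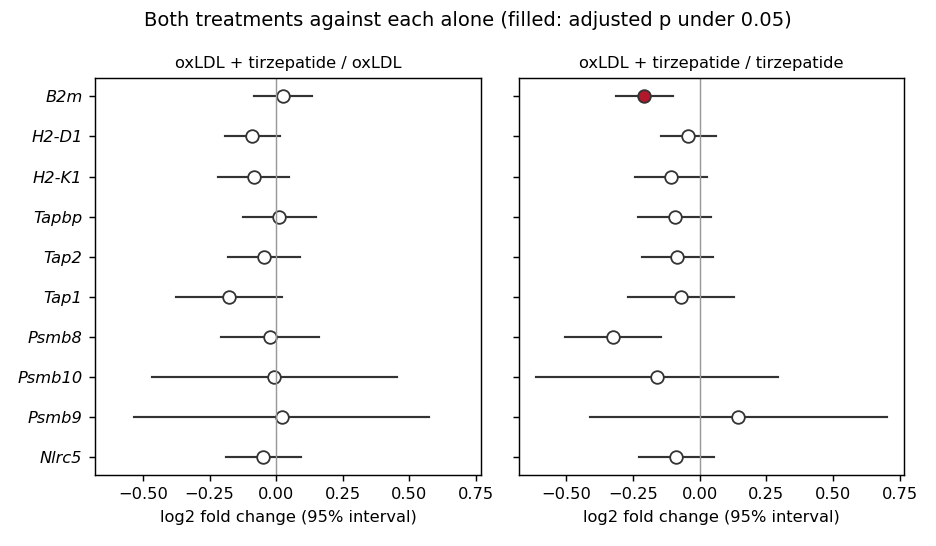
Log2 fold change (horizontal axis) of the 10 genes with both treatments against oxLDL alone and against tirzepatide alone, from edgeR's fit of all libraries; lines are 95% intervals and the filled point has an adjusted p under 0.05. B2m is filled at -0.21 against tirzepatide, and against oxLDL no point is filled.

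Whether the change with both treatments departed from the sum of the single changes on the log2 scale was tested as an interaction. It passed for 0 of 10 genes by edgeR, where 0.0707% of tested genes passed, and 2 of the 10, B2m and H2-K1, had an unadjusted p under 0.05, as did 10.3% of tested genes. DESeq2 called 0 of the 10 as well. The interaction was 0.21 for B2m (SE 0.07, adjusted p = 0.322 by edgeR), 0.20 for H2-K1 (SE 0.09, adjusted p = 0.438 by edgeR) and 0.14 for H2-D1 (SE 0.07, adjusted p = 0.50 by edgeR). A positive value means that the combined fall was smaller than the sum of the single changes.

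Other class I heavy chain genes, which include nonclassical molecules with narrower roles, were read from a list of 14, of which 13 were in the table and 8 were tested. With both treatments 3 of the 8 fell, with oxLDL 2 and with tirzepatide 1, where 4.25%, 2.05% and 1.74% of all tested genes fell. None rose, where 4.69%, 2.49% and 2.34% of all tested genes rose. H2-Q6 fell in every treated group. It averaged 25.4 ± 1.07 TPM with both treatments, 24.6 ± 3.59 TPM with oxLDL, 26.8 ± 1.61 TPM with tirzepatide and 37.5 ± 3.39 TPM in controls (SD, n = 4 each). All treated libraries were below all controls. The log2 changes were -0.56, -0.53 and -0.49, with SEs of 0.09 each and adjusted p = 0.000354, 0.000534 and 0.00281 by edgeR in that order.

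H2-T22 and H2-T23, the second of which encodes Qa-1, a ligand of the inhibitory NKG2A receptor, fell with both treatments. H2-T22 averaged 17.8 ± 2.24 TPM there and 22.6 ± 0.998 TPM in controls (SD, n = 4 each), which fell by 0.35 on the log2 scale (SE 0.09) with adjusted p = 0.0208 by edgeR. H2-T23 averaged 91.3 ± 9.82 TPM and 104.6 ± 9.14 TPM in the same groups, which fell by 0.20 on the log2 scale (SE 0.06) with adjusted p = 0.0469 by edgeR. Its libraries with both treatments, at 76.7 to 97.8 TPM, overlapped the controls at 90.9 to 109.9 TPM. H2-T24 fell with oxLDL against control by 0.29 on the log2 scale (SE 0.08, adjusted p = 0.033 by edgeR) and with both treatments against tirzepatide by 0.33 (SE 0.08, adjusted p = 0.026 by edgeR), while its change with tirzepatide alone was 0.25 (SE 0.08, adjusted p = 0.0634 by edgeR). H2-M3, whose window in the reference genome shares the X2 and Y spacing shown above, changed by 0.03 with both treatments, 0.12 with oxLDL and -0.12 with tirzepatide, none past the threshold. H2-Q10, H2-M2 and H2-M5 were listed at 0 in all libraries. The uncertainty of split reads named for H2-K1 and H2-D1 holds for these paralogs too.

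**Figure D5:**
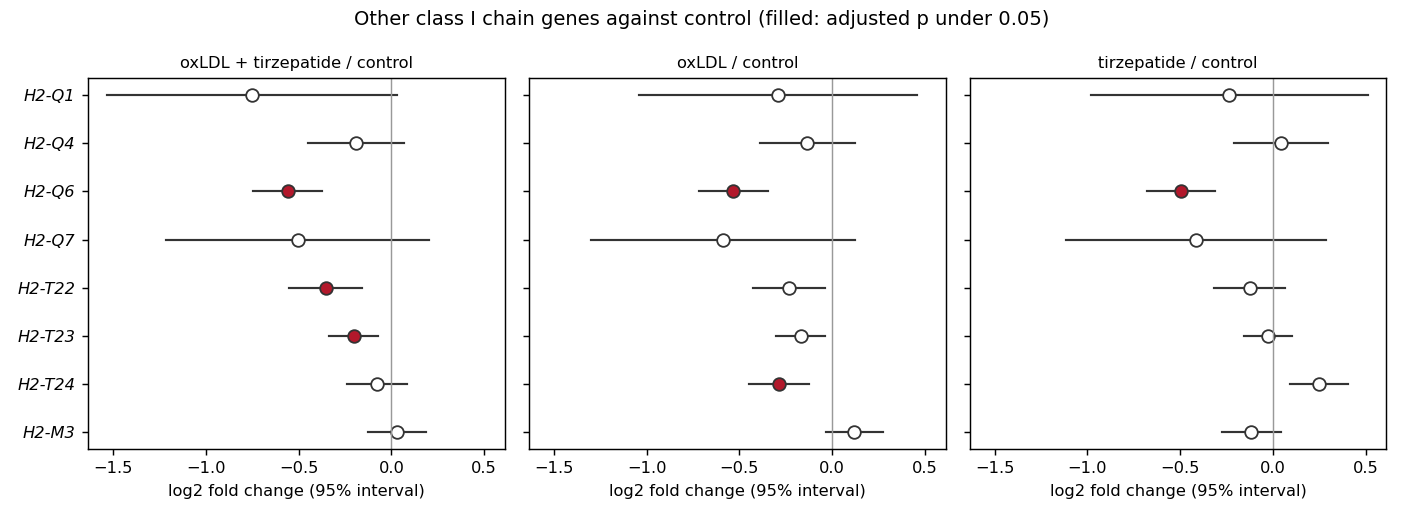
Log2 fold change against control (horizontal axis) of the 8 tested heavy chain genes outside the 10, with both treatments, with oxLDL and with tirzepatide, from edgeR's fit; lines are 95% intervals and filled points have an adjusted p under 0.05. H2-Q6 is filled in all panels at -0.56, -0.53 and -0.49, and H2-T24 lies below 0 with oxLDL and above 0 with tirzepatide.

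Genes around the pathway mostly did not pass the test, where 8.94% of all tested genes passed in either direction with both treatments, 4.54% with oxLDL and 4.08% with tirzepatide. Of 11 genes of peptide loading, import and trimming, Erap1, the aminopeptidase that trims peptides in the endoplasmic reticulum, rose with both treatments against control by 0.19 on the log2 scale (SE 0.06) with adjusted p = 0.0487 by edgeR, and none passed in the other comparisons. Of 5 genes of proteasome activators and assembly, among them Psme1 and Psme2 for the interferon-inducible PA28 activator, 0 passed in any comparison. At an unadjusted p under 0.05 by edgeR, 1 of those 5 passed in each comparison with control, where 23.4%, 18.0% and 18.6% of all tested genes did with both treatments, oxLDL and tirzepatide.

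Of 16 transcription factors that bind class I promoters or act in interferon and NF-kappa B signalling, 1 passed in each comparison with control and 0 in the others, which is near the shares over all tested genes. Unadjusted p by edgeR was under 0.05 for 7 of the 16 with tirzepatide against control, where 18.6% of all tested genes had this. With both treatments against tirzepatide it was so for 6, where 13.8% did. The count was 3 with both treatments and 4 with oxLDL against control, and 1 with both treatments against oxLDL, where 23.4%, 18.0% and 10.1% did. Irf8, an interferon regulatory factor needed in the myeloid lineage, fell with both treatments by 0.36 on the log2 scale (SE 0.10, adjusted p = 0.0294 by edgeR), at 9.23 ± 0.723 TPM against 11.9 ± 2.08 TPM in controls (SD, n = 4 each). Irf9, the DNA-binding part of the complex that answers type I interferon, fell with oxLDL by 0.27 (SE 0.06, adjusted p = 0.0124 by edgeR), at 24.9 ± 0.902 TPM against 29.7 ± 1.32 TPM in controls. Nfkb1, which encodes a subunit of NF-kappa B, rose with tirzepatide by 0.22 (SE 0.06, adjusted p = 0.034 by edgeR), at 70.6 ± 2.59 TPM against 62.1 ± 3.05 TPM in controls.

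Irf1, a factor of the interferon gamma response, did not pass in any comparison. Irf1 averaged 8.35 ± 0.88 TPM with both treatments, 7.71 ± 0.925 TPM with oxLDL, 8.39 ± 0.963 TPM with tirzepatide and 8.09 ± 0.757 TPM in controls (SD, n = 4 each). Of 9 interferon receptor, kinase and feedback genes, 8 were tested and Tyk2, a kinase of the type I interferon receptor, fell with both treatments by 0.21 on the log2 scale (SE 0.06, adjusted p = 0.0285 by edgeR). That was 1 of the 8, where 4.25% of all tested genes fell. Tyk2 averaged 26.5 TPM with both treatments, 26.5 TPM with oxLDL, 26.7 TPM with tirzepatide and 29.8 TPM in controls. Its level was thus much the same in each treated group, though 0 of the 8 passed with either treatment alone against control.

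The genes whose pattern over the 16 libraries was most like that of B2m were named by the smallest root mean square difference in log2 CPM relative to the control mean. Among the 5 nearest were Bpgm (0.0813), Rab15 (0.0906), Fmn1 (0.0916) and Sla (0.0933), where the median over tested genes was 0.342. Among the class I genes, H2-K1 was nearest at 0.136, behind 22 other genes, followed by Psmb8 at 0.179 and H2-D1 at 0.181. Psmb9 was farthest at 0.446. These differences share libraries and their depth with B2m and are given as a description.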

How the data were processed

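The authors deposited 1 table with an expected count per gene and library and the TPM of the same genes, estimated with RSEM per the submitters' processing notes, where Bowtie2 2.2.8, StringTie 1.3.1, fastp 0.18.0 and the build GRCm39 (mm39) are listed too. The annotation release and the use of strand are not given in the sources used here. Expected counts were rounded and tested with edgeR 4.0.16 in R 4.3.3: filterByExpr with a minimum count of 10, TMM, and quasi-likelihood tests in a model that gave each of the 4 groups its own mean over all 16 libraries. Benjamini-Hochberg adjustment covered all 11319 tested genes per contrast, with a threshold of 0.05. SEs are the log2 change over the square root of F. TPM as deposited served for levels and ratios only. DESeq2 1.42.0 was an alternative.

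The 10 genes, the lists, the tests and the choice of genes to name were chosen with earlier results of these data known. All 10 genes are named, along with called genes of the lists and genes among the 5 most like B2m; some items under these rules are not reported here. No clear pairing by single library number was seen: over 24 same-numbered pairs, deviations correlated at -0.13 to 0.19, with 5 pairs over 0.1. A split of libraries 1 and 2 from libraries 3 and 4 was not tested. In 40 sets of 4 libraries no value stood apart by Dixon's criterion. For 4 values it asks for a gap above 0.829 of the range, so values far from the rest can go unmarked. Tap2 in control 1 and Psmb9 in tirzepatide 1, given above, were not marked. The precision of each level is set by 15877278 to 17336019 counts per library.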

Additional observations from a re-analysis of the deposited data

How the results depend on the processing

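Alternatives were a replicate block, a fit of only the groups compared, DESeq2 size factors, DESeq2, a TPM filter (5 in 4 libraries), no filter, controls 1 and 2 left out, the libraries numbered 1 left out, and each library left out in turn. Of 1418 alternative values for the 10 genes, 1289 kept their direction and side of the threshold, 57 lost and 21 gained a call, and 51 changed sign.

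The number of the 10 genes called moved as follows. Without controls 1 and 2 it was 3 with both treatments, 1 with oxLDL and 0 with tirzepatide, against control. With only the groups compared it was 3 for both treatments against control and 0 against tirzepatide. Against tirzepatide it was 2 under the replicate block, 2 with DESeq2 and 2 with no filter. Leaving out 1 library gave 3 to 6 called genes with both treatments, 2 to 4 with oxLDL and 0 to 3 with tirzepatide, against control, 0 to 2 for both treatments against tirzepatide, and 0 for both treatments against oxLDL and for the interaction. Over all genes, the block gave 1357, 734 and 750 calls for both treatments, oxLDL and tirzepatide against control, where the fit without it gave 1012, 514 and 462. It gave 378 calls against 174 for both treatments against tirzepatide, 17 against 4 against oxLDL, and 29 against 8 for the interaction. Under the block the adjusted p of B2m with tirzepatide against control was 0.00978 by edgeR. For 6 of 16 libraries, the mean correlation of deviations with libraries of the other groups was highest for those of the same number. The fit of only the groups compared gave 410 calls for both treatments against control, 264 for tirzepatide against control and 107 for both treatments against tirzepatide. Without controls 1 and 2 the calls against control were 967 with both treatments, 307 with oxLDL and 204 with tirzepatide. Without the libraries numbered 1 they were 291 with tirzepatide against control and 86 for both treatments against tirzepatide. DESeq2 gave 318 calls and no filter 282 in that last comparison, and against oxLDL they gave 33 and 32. Against oxLDL there were also 7 calls with only the groups compared, 8 without controls 1 and 2, and 13 without the libraries numbered 1. The interaction had 56 with DESeq2, 39 with no filter, 5 without controls 1 and 2, and 4 without the libraries numbered 1.

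Changes of sign follow, and the cause was not tested. For tirzepatide against control, Tap2 was -0.0334 and Tapbp -0.0254 without controls 1 and 2, and Tap2 was -0.0175 without the libraries numbered 1. For both treatments against oxLDL without the libraries numbered 1, B2m was -0.00607, Tap2 0.00174, Tapbp -0.00072 and Psmb10 0.0484. The interaction of Tapbp was 0.00811 under the TPM filter and 0.0392 without controls 1 and 2, and that of Tap2 was 0.0192 without the libraries numbered 1. The log2 ratio of Psmb9 over Psmb6 with both treatments was 0.0691 on TMM-scaled CPM.

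With single libraries left out, the log2 change with oxLDL ran from -0.0663 to 0.0213 for Tap2 and from -0.21 to 0.18 for Psmb9. With tirzepatide it ran from -0.0283 to 0.0592 for Tap2, from -0.0624 to 0.0585 for Tapbp, from -0.036 to 0.0472 for Psmb8 and from -0.40 to 0.0498 for Psmb9, and with both treatments from -0.19 to 0.20 for Psmb9. For both treatments against oxLDL it ran from -0.0158 to 0.0627 for B2m, from -0.0346 to 0.0538 for Tapbp, from -0.0743 to 0.0521 for Psmb8, from -0.0713 to 0.15 for Psmb9 and from -0.12 to 0.10 for Psmb10. The interaction ran from -0.0414 to 0.13 for Tap1, from -0.0488 to 0.0739 for Tapbp, from -0.0884 to 0.038 for Psmb8 and from -0.0303 to 0.42 for Psmb9. The log2 ratio Psmb8 over Psmb5 ran from -0.0307 to 0.0572 with tirzepatide and from -0.11 to 0.0681 for both treatments against oxLDL. That of Psmb9 over Psmb6 ran from -0.30 to 0.0341 with oxLDL, from -0.46 to 0.13 with tirzepatide, from -0.16 to 0.16 with both treatments and from -0.17 to 0.42 for both against tirzepatide, and that of Psmb10 over Psmb7 from -0.12 to 0.17 for both against oxLDL. Depth limits Psmb9 and Psmb10 most, at 21 to 73 counts.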

Other observations

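Class II presentation genes and T cell ligands were read from lists as well. Of 10 class II genes 7 were tested, and H2-Eb1, a class II beta chain, was higher with both treatments than with tirzepatide alone by 1.96 on the log2 scale (SE 0.50, adjusted p = 0.0445 by edgeR). It averaged 1.17 ± 0.247 TPM with both treatments, 0.498 ± 0.131 TPM with oxLDL, 0.25 ± 0.191 TPM with tirzepatide and 1.00 ± 0.274 TPM in controls (SD, n = 4 each), on 1 to 15 counts per library. The combined libraries overlapped the controls, while the tirzepatide libraries lay wholly below them, on 1 to 5 counts. No other class II gene passed in any comparison. H2-Eb1 was thus 1 of the 7 against tirzepatide alone, where 1.54% of all tested genes passed in either direction.

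Of 5 co-stimulatory and inhibitory ligands 4 were tested, and Cd274, which encodes PD-L1, an interferon-inducible ligand that restrains T cells, fell against control in both groups given oxLDL. It averaged 3.04 ± 0.514 TPM with both treatments, 2.99 ± 0.621 TPM with oxLDL, 4.21 ± 0.833 TPM with tirzepatide and 4.50 ± 0.444 TPM in controls (SD, n = 4 each). The log2 change against control was -0.58 with both treatments (SE 0.17, adjusted p = 0.0298 by edgeR), -0.60 with oxLDL (SE 0.17, adjusted p = 0.033 by edgeR) and -0.13 with tirzepatide (SE 0.16, adjusted p = 0.728 by edgeR). Against tirzepatide alone, the change with both treatments was -0.45 (SE 0.17, adjusted p = 0.207 by edgeR). Cd274 was 1 of the 4 in each of its calls, where 4.25% of all tested genes fell against control with both treatments and 2.05% with oxLDL.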
